A study of Mus musculus with 16 samples.

Results

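The 10 genes of class I antigen presentation described here were measured in left ventricle: the regulator Nlrc5, the immunoproteasome subunits Psmb8, Psmb9 and Psmb10, the peptide transporter genes Tap1 and Tap2, the loading chaperone Tapbp, and B2m with the heavy chains H2-K1 and H2-D1. They were taken by name from the deposited count table after its Ensembl IDs were matched to symbols. All 10 were found among 53764 genes, and all 10 had enough counts to be among the 15841 genes tested. Male C57BL/6J mice began a diet at 8 weeks of age and were fed it for 4 months. The HFHS diet was high in fat and sucrose, and CD was a control diet of low fat content. Each was given with or without ertugliflozin, which blocks SGLT2, the sodium-coupled carrier that takes glucose back up in the kidney. The drug was part of the diet, at 0.5 mg in each g. The groups were HFHS ertugliflozin, HFHS untreated, CD ertugliflozin and CD untreated, with 4 libraries each and 16 in all. The submitters chose these animals as representative from a larger number, so every p-value below measures the spread between the chosen animals.

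Class I molecules carry short peptides from proteins made inside a cell to its surface, where CD8 T cells read them. The peptides come mostly from the proteasome, in which the inducible catalytic subunits encoded by Psmb8, Psmb9 and Psmb10 can replace the constitutive ones encoded by Psmb5, Psmb6 and Psmb7. The transporter formed by Tap1 and Tap2 moves peptides into the endoplasmic reticulum, tapasin (Tapbp) holds it close to empty class I molecules, and a heavy chain pairs with beta-2 microglobulin (B2m) to hold the peptide. Nlrc5 is a transactivator of class I genes, and interferon gamma, acting in part through Irf1, is the classical inducer of the whole group. In healthy heart muscle cells the class I level is known to be low compared with that of lymphoid tissue.

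Promoter windows from RefSeq (GRCm38.p6) were matched for 8 of the 10 genes, each with 250 bases before and 50 after an annotated start. H2-K1 had 2 windows that share 286 bases, which gave 9 windows. The 4 below are shown because they belong to the pair of heavy chain genes, to their light chain and to the divergent start of Tap1 and Psmb9. Sequences read 5′ to 3′ on the strand of the gene. Capitals mark matches on either strand to 5 motifs that were chosen after the sequences had been seen: AANNGAAA (core of the interferon regulatory factor site), TTCNNNGAA (the gamma-activated sequence), the kappa B consensus, CCAAT (the site of NF-Y) and TGACG (core of the X2 box of class I promoters). Matches to different motifs do not overlap in these windows, while the kappa B stretch of H2-K1 and of H2-D1 holds a pair of overlapping matches.
H2-K1, chr17:34000298-34000597, minus strand: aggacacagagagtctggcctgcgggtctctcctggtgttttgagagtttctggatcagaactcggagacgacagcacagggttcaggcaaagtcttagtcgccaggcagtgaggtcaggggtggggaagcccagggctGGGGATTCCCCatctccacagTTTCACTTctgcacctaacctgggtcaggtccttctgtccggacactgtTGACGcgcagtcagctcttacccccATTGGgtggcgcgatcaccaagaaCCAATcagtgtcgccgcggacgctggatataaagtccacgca
H2-D1, chr17:35262844-35263143, plus strand: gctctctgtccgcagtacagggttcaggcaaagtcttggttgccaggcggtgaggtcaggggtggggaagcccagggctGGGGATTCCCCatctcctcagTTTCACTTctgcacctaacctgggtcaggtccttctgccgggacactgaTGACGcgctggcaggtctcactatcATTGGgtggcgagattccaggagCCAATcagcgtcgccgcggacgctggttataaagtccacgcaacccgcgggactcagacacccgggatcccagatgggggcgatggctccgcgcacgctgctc
B2m, chr2:122147437-122147736, plus strand: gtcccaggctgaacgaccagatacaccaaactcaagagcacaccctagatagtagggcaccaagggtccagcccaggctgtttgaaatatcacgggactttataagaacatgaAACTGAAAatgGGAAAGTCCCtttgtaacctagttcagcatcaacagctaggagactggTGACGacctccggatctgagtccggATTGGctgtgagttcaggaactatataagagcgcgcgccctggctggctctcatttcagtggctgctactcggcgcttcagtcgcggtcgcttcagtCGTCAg
Tap1, chr17:34187306-34187605, plus strand: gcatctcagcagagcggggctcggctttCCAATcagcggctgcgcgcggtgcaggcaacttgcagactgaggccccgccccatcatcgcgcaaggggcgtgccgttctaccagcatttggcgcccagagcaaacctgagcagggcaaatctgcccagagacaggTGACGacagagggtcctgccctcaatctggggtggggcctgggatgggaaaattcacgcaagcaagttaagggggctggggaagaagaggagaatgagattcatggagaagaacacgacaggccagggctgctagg
The kappa B consensus matched in windows of 3 of the 8 genes (H2-K1, H2-D1 and B2m), and the matched stretch is identical in H2-K1 and H2-D1. AANNGAAA matched in windows of the same 3 genes. TGACG matched in 5 of the 8 genes, CCAAT in 6 and TTCNNNGAA in 1, Psmb8. Of 32851 mouse promoter windows of the same length, 4.51% held the kappa B consensus, 23.9% AANNGAAA, 20.8% TGACG, 37.4% CCAAT and 8.3% TTCNNNGAA. The motifs were chosen after the sequences had been seen and several windows share sequence, so these shares are a description and nothing is read from the difference. The H2-K1 and H2-D1 windows held 180 identical bases in their best ungapped alignment of 254, or 70.9%. The Tap1 window shares 275 bases with the window of Psmb9, which is read from the opposite strand and starts 226 bases away. A match describes these letters only and shows neither binding nor use of a site.

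Of the 10 genes, 7 lie on chromosome 17. Coordinates are those of GENCODE M21 (GRCm38). Psmb9 (chr17:34181987-34187764), Tap1 (chr17:34187553-34197225), Psmb8 (chr17:34197721-34201454) and Tap2 (chr17:34203527-34216321) follow one another within 34.3 kb. The models of Psmb9 and Tap1 overlap by 212 bases on opposite strands, and the strand setting of the counting is not given in the sources used here, so some of their reads may not be told apart. H2-K1 (chr17:33996017-34000347), Tapbp (chr17:33915899-33929292) and H2-D1 (chr17:35262730-35267499) lie on both sides of that block. Nlrc5 (chr8:94434356-94527272) and Psmb10 (chr8:105935735-105938444) are on chromosome 8, and B2m (chr2:122147686-122153083) is on chromosome 2. The heavy chain genes are close copies of one another and of the H2-Q and H2-T genes, and how reads that map to several places were counted is not given, so their counts are uncertain.

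Library totals were 14637669 to 21452212 counts. Levels are given as CPM, counts divided by the library total and its TMM factor and scaled to a common size. Ventricular cardiomyocyte markers summed to 69870 to 88633 CPM, and none of the 8 was at 0. Atrial markers summed to 102 to 203 CPM except in the CD untreated group, where they reached 1015 CPM, and valve and cartilage markers summed to 34.1 to 201 CPM there and to 8.20 to 56.3 CPM in the other groups. The labels name no sequencing or extraction batch.

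B2m had the highest level per length, with 308 CPM per kb of exon averaged over the 16 libraries. H2-D1 followed with 101 and H2-K1 with 66.4 CPM per kb. Tapbp (23.8) and Psmb10 (23.7 CPM per kb) were next. Tap2 averaged 11.5, Psmb8 5.66, Tap1 3.18, Psmb9 2.43 and Nlrc5 1.10 CPM per kb. The ranges over libraries overlapped between the neighbours H2-D1 and H2-K1, Tapbp and Psmb10, Psmb8 and Tap1, Tap1 and Psmb9, and Psmb9 and Nlrc5. Those of the other neighbours in this order did not. Lengths are those of all annotated exons of a gene together, which include long isoforms of Psmb8 and Psmb9, so the order is approximate. All further levels are in CPM and compare groups within a gene, apart from the ratios between genes, which are per kb of exon.

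**Figure D1:**
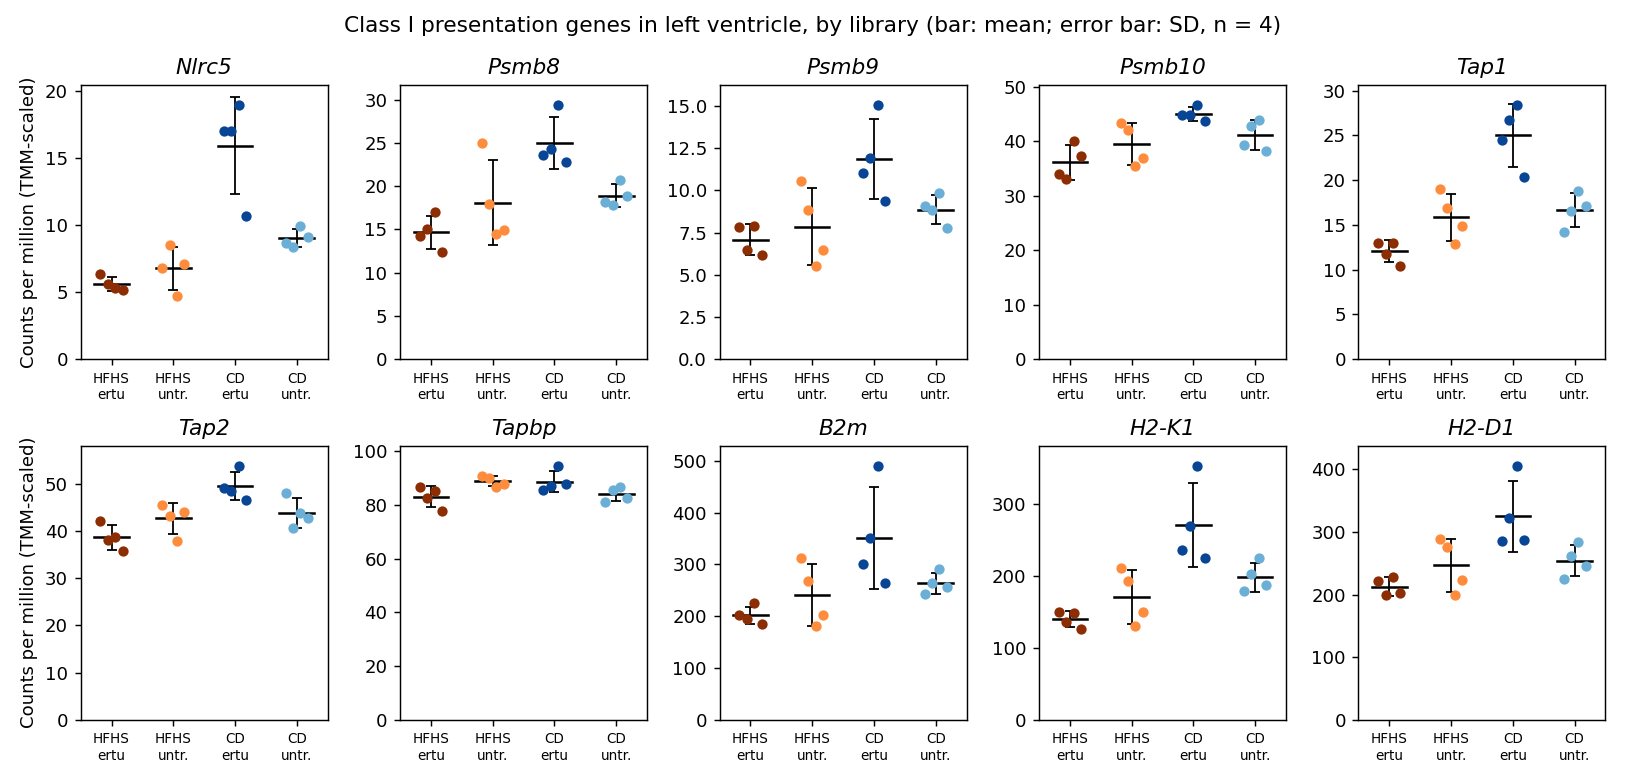
CPM of each gene (vertical axis, from 0) in the 4 groups (horizontal axis), with 1 point per library, a bar at the mean and an error bar of 1 SD (n = 4). In 9 of the 10 panels every HFHS ertugliflozin point lies below every CD ertugliflozin point, and Tapbp is the exception.

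Among mice given ertugliflozin, the class I genes were lower on the HFHS diet than on CD. In HFHS ertugliflozin ventricles 9 of the 10 genes were lower than in CD ertugliflozin ventricles past an adjusted p of 0.05 (edgeR quasi-likelihood test, Benjamini-Hochberg over all genes tested), and Tapbp was the gene that did not pass. Of all genes tested, 1.53% fell in this comparison and 3.69% passed in either direction. The 10 genes were chosen with earlier results of these data known. Part of any distance from such shares, here and below, may come with that choice. The median log2 fold change of the 10 genes was -0.75, against -0.0054 for all genes tested. The libraries of the 2 groups did not overlap for the same 9 genes, against 6.36% of all genes tested with every HFHS ertugliflozin library lower. In whole ventricle, fewer cells of a type and less RNA per cell cannot be told apart.

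Nlrc5, the transactivator, moved the most on the log scale. It had 6.38, 5.62, 5.30 and 5.16 CPM in the HFHS ertugliflozin libraries and 6.78, 8.53, 4.70 and 7.08 CPM in the HFHS untreated libraries. It had 17.0, 17.0, 19.0 and 10.7 CPM in the CD ertugliflozin libraries and 8.68, 8.39, 9.93 and 9.09 CPM in the CD untreated libraries. Every CD ertugliflozin library was above all 12 others, although replicate 4 of that group, at 10.7 CPM, stood closer to the untreated CD libraries than to its own group. Nlrc5 was 0.354 times as high in HFHS ertugliflozin as in CD ertugliflozin, which is -1.50 ± 0.17 (SE) on the log2 scale (edgeR adjusted p = 8.55e-05).

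Among the immunoproteasome subunits, Psmb8, which carries the chymotrypsin-like activity of the inducible proteasome, had 14.2, 15.0, 17.0 and 12.4 CPM in HFHS ertugliflozin and 25.0, 18.0, 14.5 and 14.9 CPM in HFHS untreated. It had 23.6, 24.3, 29.3 and 22.7 CPM in CD ertugliflozin and 18.1, 17.8, 20.7 and 18.8 CPM in CD untreated. The lowest CD ertugliflozin library was above every HFHS ertugliflozin library, while the first HFHS untreated library lay within the CD ertugliflozin range. The log2 fold change between the ertugliflozin groups was -0.77 ± 0.14 (edgeR adjusted p = 0.00658).

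Psmb9, the inducible counterpart of Psmb6, had 7.83, 6.46, 7.88 and 6.16 CPM in HFHS ertugliflozin and 10.5, 8.85, 5.54 and 6.47 CPM in HFHS untreated. It had 11.05, 11.9, 15.0 and 9.39 CPM in CD ertugliflozin and 9.06, 8.82, 9.83 and 7.75 CPM in CD untreated. The ertugliflozin groups did not overlap, and the HFHS untreated libraries ran from the lowest value of all 16 libraries to one above the lowest CD ertugliflozin library. Psmb9 fell by 0.74 ± 0.17 on the log2 scale in HFHS ertugliflozin against CD ertugliflozin (edgeR adjusted p = 0.0221).

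Psmb10, the inducible counterpart of Psmb7, was the subunit with the smallest difference. It had 34.0, 33.1, 40.1 and 37.3 CPM in HFHS ertugliflozin and 43.4, 42.1, 35.6 and 37.0 CPM in HFHS untreated. It had 44.9, 44.9, 46.6 and 43.7 CPM in CD ertugliflozin and 39.4, 42.9, 43.9 and 38.1 CPM in CD untreated. The CD ertugliflozin libraries lay close together, with a coefficient of variation of 2.67%, and above all HFHS ertugliflozin libraries. The log2 fold change was -0.32 ± 0.07 (edgeR adjusted p = 0.0177).

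Of the transport and loading genes, Tap1 fell most. It had 13.0, 11.8, 13.0 and 10.4 CPM in HFHS ertugliflozin and 19.0, 16.8, 12.8 and 14.9 CPM in HFHS untreated. It had 24.5, 26.7, 28.4 and 20.4 CPM in CD ertugliflozin and 14.3, 16.5, 18.8 and 17.1 CPM in CD untreated. The 4 CD ertugliflozin libraries were the highest of all 16, and the HFHS ertugliflozin libraries were all below those of CD untreated. Tap1 was 0.483 times as high in HFHS ertugliflozin as in CD ertugliflozin, which is -1.05 ± 0.12 on the log2 scale (edgeR adjusted p = 9.91e-05).

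Tap2, the partner subunit of the transporter, had 42.1, 38.1, 38.8 and 35.7 CPM in HFHS ertugliflozin and 45.4, 43.2, 37.9 and 44.1 CPM in HFHS untreated. It had 49.1, 48.4, 53.8 and 46.7 CPM in CD ertugliflozin and 48.1, 40.6, 43.7 and 42.7 CPM in CD untreated. The ertugliflozin groups did not overlap, but the distance between them was smaller than for Tap1: the log2 fold change was -0.35 ± 0.07 (edgeR adjusted p = 0.00694).

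Tapbp, which bridges the transporter and the class I molecule, had the smallest difference of the 10. It had 86.8, 82.6, 85.3 and 77.7 CPM in HFHS ertugliflozin and 90.7, 90.1, 86.7 and 88.0 CPM in HFHS untreated. It had 85.8, 87.0, 94.6 and 87.7 CPM in CD ertugliflozin and 81.2, 85.6, 86.6 and 82.5 CPM in CD untreated. The ertugliflozin groups overlapped, with a log2 fold change of -0.09 ± 0.05 (edgeR adjusted p = 0.284).

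B2m, the light chain, had 202, 194, 225 and 186 CPM in HFHS ertugliflozin and 312, 267, 182 and 203 CPM in HFHS untreated. It had 301, 350.4, 489.8 and 265 CPM in CD ertugliflozin and 243, 264, 292 and 256 CPM in CD untreated. The third CD ertugliflozin library was the highest of all 16, and the fourth lay inside the CD untreated range. B2m fell by 0.80 ± 0.19 on the log2 scale in HFHS ertugliflozin against CD ertugliflozin (edgeR adjusted p = 0.0354).

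H2-K1, one of the classical heavy chains of this strain, had 150.1, 136, 149 and 126 CPM in HFHS ertugliflozin and 211, 194, 131 and 149 CPM in HFHS untreated. It had 236, 269.5, 353 and 225 CPM in CD ertugliflozin and 179, 202, 225 and 187 CPM in CD untreated. All HFHS ertugliflozin libraries were below all libraries of both CD groups. The log2 fold change between the ertugliflozin groups was -0.95 ± 0.16, which is 0.518 times the CD level (edgeR adjusted p = 0.00553).

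H2-D1, the other classical heavy chain, had 221, 199, 229 and 203 CPM in HFHS ertugliflozin and 288, 276, 199 and 223 CPM in HFHS untreated. It had 285, 323, 405 and 286 CPM in CD ertugliflozin and 225, 262, 285 and 245 CPM in CD untreated. The ertugliflozin groups did not overlap, while HFHS ertugliflozin and CD untreated shared the stretch from 225 to 229 CPM. The log2 fold change between the ertugliflozin groups was -0.61 ± 0.13 (edgeR adjusted p = 0.0152).

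Nlrc5, Psmb8, Tap1, Tap2 and H2-K1 passed in this comparison whichever library was left out. The count of members that fell dropped to 5 without HFHS ertugliflozin replicate 2 and to 6 without CD ertugliflozin replicate 3, with B2m, Psmb9 and Psmb10 lost in both and H2-D1 (adjusted p = 0.0539) in the first. B2m was also lost without HFHS ertugliflozin replicate 1, 3 or 4 or CD ertugliflozin replicate 2, with adjusted p of 0.0642 to 0.0957 over all 6 libraries. Psmb9 was lost as well without HFHS ertugliflozin replicate 4 (0.0686) and Psmb10 without HFHS ertugliflozin replicate 1 (0.0724).

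**Figure D2:**
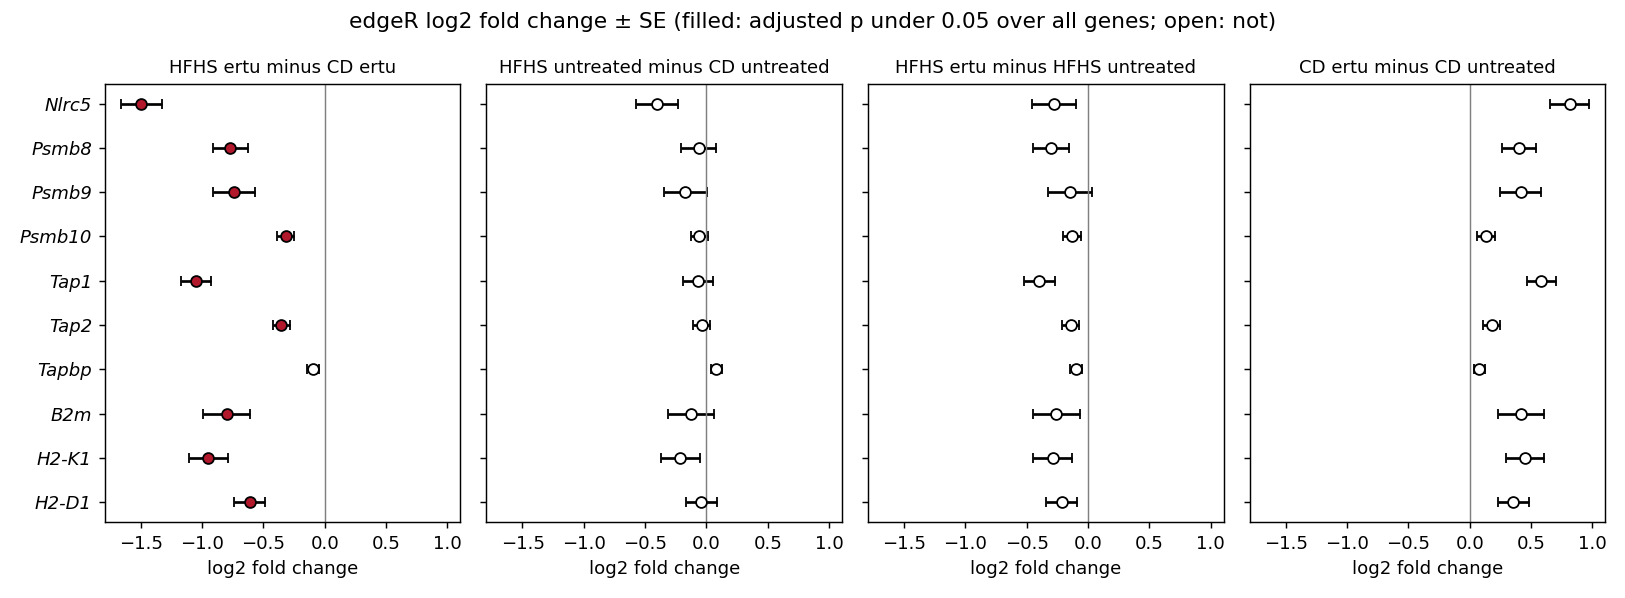
edgeR log2 fold change with its SE (horizontal axis) for each gene in 4 comparisons (panels), with filled points where the adjusted p over all genes is under 0.05. The 9 filled points are all in the panel of HFHS ertugliflozin minus CD ertugliflozin, where they run from -1.50 to -0.32.

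Markers of other cells were read in the same libraries. All 12 macrophage markers were lower in HFHS ertugliflozin than in CD ertugliflozin, with a median log2 fold change of -0.38 and 0 past the adjusted threshold of edgeR (6 at an unadjusted p under 0.05, against 18.5% of all genes tested). They summed to 377 to 456 CPM in HFHS ertugliflozin against 447 to 632 CPM in CD ertugliflozin, and no marker was at 0 in every library. T and NK cell markers summed to 2.53 to 3.23 CPM in HFHS ertugliflozin against 2.61 to 5.68 CPM in CD ertugliflozin, and 2 of these 12 markers had enough counts to be tested. Endothelial markers summed to 1915 to 2163 CPM in HFHS ertugliflozin and to 1807 to 1966 CPM in CD ertugliflozin, with 0 of 10 past the threshold of edgeR and 3 at an unadjusted p under 0.05. All 5 erythroid markers were lower in HFHS ertugliflozin than in CD ertugliflozin, with a median log2 fold change of -0.33, 0 past the threshold of edgeR and 1 at an unadjusted p under 0.05. They summed to 247 to 333 CPM in HFHS ertugliflozin and to 315 to 400 CPM in CD ertugliflozin. Of 6 fibroblast markers 1 rose, Pdgfra, at 0.25 ± 0.07 (edgeR adjusted p = 0.0414), with a median of 0.32 over the 6 and sums of 1101 to 1355 CPM in HFHS ertugliflozin and 871 to 1287 CPM in CD ertugliflozin. Of 8 ventricular cardiomyocyte markers Myl2, Myl3, Tnnt2 and Tnni3 fell, by 0.20 to 0.25 on the log2 scale. Of all genes tested 1.53% fell. The median over the 8 was -0.12, and 2 of these markers were higher, by up to 0.24. The part of these cells in the class I values was not tested.

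Ertugliflozin on the control diet was the next comparison, and it shares the CD ertugliflozin libraries with the one above. All 10 genes were higher in CD ertugliflozin than in CD untreated, and 0 passed the adjusted threshold of edgeR, against 0.0189% of all genes tested. At an unadjusted p under 0.05 there were 8 of the 10, against 6.17% of all genes tested. Tapbp (log2 fold change 0.08 ± 0.05) and Psmb10 (0.13 ± 0.07) were outside that count. The log2 fold change was 0.82 ± 0.16 for Nlrc5 (edgeR adjusted p = 0.199) and 0.58 ± 0.12 for Tap1 (0.245). It lay between 0.35 and 0.45 for Psmb8, Psmb9, B2m, H2-K1 and H2-D1, and was 0.18 ± 0.07 for Tap2. Nlrc5, Psmb8, Tap1, H2-K1 and H2-D1 had every CD ertugliflozin library above every CD untreated library, against 1.77% of all genes tested. For H2-K1 the nearest libraries stood at 225.4 CPM in CD ertugliflozin and 225.0 CPM in CD untreated. Markers of other cells were read here too. All 6 valve and cartilage markers tested were lower in CD ertugliflozin (median log2 fold change -2.22), as were all 6 atrial markers (-2.13). Of these, 5 and 3 had an unadjusted edgeR p under 0.05. Of 6 fibroblast markers 5 were lower (median -0.27), and of 12 macrophage markers 8 were higher (median 0.06). No marker of these lists passed the threshold of edgeR, and their part was not tested.

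The calls for ertugliflozin on CD changed with 1 library. Without CD ertugliflozin replicate 4, which was the lowest of its group for 8 of the 10 genes, Nlrc5 (0.97 ± 0.13, edgeR adjusted p = 0.00516) and Tap1 (0.67 ± 0.11, 0.0416) rose. Without HFHS untreated replicate 3, Nlrc5 passed alone (0.0392). DESeq2 called the same 2 genes in all 16 libraries, with adjusted p of 0.00489 for Nlrc5 and 0.0114 for Tap1.

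On the HFHS diet the drug comparison ran the other way in sign. All 10 genes were lower in HFHS ertugliflozin than in HFHS untreated, by 0.10 to 0.40 on the log2 scale with a median of -0.24. None passed the adjusted threshold of edgeR, and the share among all genes tested was 0%. The groups overlapped for all 10 genes, whereas 1.54% of all genes tested had every HFHS ertugliflozin library lower and 1.31% had every one higher. At an unadjusted p under 0.05 there was 1 member, Tap1 (-0.40 ± 0.13), against 4.02% of all genes tested. The HFHS untreated libraries were uneven: replicates 1 and 2 held more than replicates 3 and 4 of Psmb8, Psmb9, Psmb10, Tap1, Tapbp, B2m, H2-K1 and H2-D1. For B2m the coefficient of variation was 8.28% in HFHS ertugliflozin and 24.8% in HFHS untreated, and for Psmb9 it was 12.7% and 28.9% in the same groups. Markers of other cells moved with this comparison. All 12 macrophage markers were lower in HFHS ertugliflozin, with a median log2 fold change of -0.20, 0 past the threshold of edgeR and 3 at an unadjusted p under 0.05, and sums of 377 to 456 CPM in HFHS ertugliflozin and 426 to 492 CPM in HFHS untreated. All 5 erythroid markers were lower, with a median of -0.41, 0 past the threshold of edgeR and 4 at an unadjusted p under 0.05, and sums of 247 to 333 CPM in HFHS ertugliflozin and 314 to 488 CPM in HFHS untreated. All 10 endothelial markers were lower as well (median -0.11, 3 at an unadjusted edgeR p under 0.05). All 6 valve and cartilage markers tested were higher (median 0.78, 0 at an unadjusted edgeR p under 0.05). No marker of either list passed the threshold of edgeR. The part of all these cells in the class I values was not tested.

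The difference between these drug effects was tested as an interaction. All 10 estimates were negative, from -1.09 to -0.18 with a median of -0.62, and 0 passed the adjusted threshold of edgeR, against 0.0189% of all genes tested. All 10 had an unadjusted p under 0.05, against 4.27% of all genes tested. Tap1 was closest, at -0.98 ± 0.17 (edgeR adjusted p = 0.0809), followed by Nlrc5 at -1.09 ± 0.24 (0.295). The interaction estimates of all 12 macrophage, all 5 erythroid and all 10 endothelial markers were negative too, with medians of -0.27, -0.53 and -0.16. Those of the 6 valve and cartilage markers tested (median 3.19) and of all 6 atrial markers (median 1.18) were positive. At an unadjusted edgeR p under 0.05 there were 2, 3, 2, 5 and 0 in the same order. No marker of these lists passed the threshold of edgeR, and the part of these cells was not tested. Tap1 and Nlrc5 both passed without CD ertugliflozin replicate 4 (adjusted p = 0.0180 each), without HFHS untreated replicate 3 (0.00961 for Tap1 and 0.0281 for Nlrc5) and with DESeq2 (3.98e-04 for Tap1 and 0.0152 for Nlrc5).

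The diets were also compared without the drug. None of the 10 genes passed the adjusted threshold of edgeR between HFHS untreated and CD untreated, against 2.06% of all genes tested, and the median log2 fold change was -0.07. Nlrc5 was the lowest, at -0.40 ± 0.17 (edgeR adjusted p = 0.244), and the 1 member with an unadjusted p under 0.05, against 16.5% of all genes tested. Tapbp, at 0.08 ± 0.05 (edgeR adjusted p = 0.405), was the 1 member whose groups did not overlap. Of all genes tested, 4.11% had every HFHS untreated library higher. The nearest libraries of Tapbp stood at 86.74 CPM in HFHS untreated and 86.63 CPM in CD untreated. The other 8 members lay between -0.21 and -0.04. Markers of other cells differed between these groups. All 6 valve and cartilage markers tested were lower in HFHS untreated (median -3.12, 1 past the threshold of edgeR). All 6 atrial markers were lower (-2.62, 0 past it), and all 10 endothelial markers were higher (0.20, 2 past it). At an unadjusted edgeR p under 0.05 there were 6, 4 and 8. Of 12 macrophage markers 7 were lower (-0.02, 0 past the threshold). The part of these markers was not tested.

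Averaged over both drug arms, 9 of the 10 genes were lower on HFHS than on CD past the adjusted threshold of edgeR, against 5.01% of all genes tested that fell and 11.6% that passed in either direction. This average holds the same libraries as the comparisons above. Nlrc5 had -0.95 ± 0.12 (adjusted p = 8.52e-05), H2-K1 -0.58 ± 0.11 (0.00489) and Tap1 -0.56 ± 0.09 (4.47e-04), and Tapbp did not pass at -0.01 ± 0.03 (0.931). B2m was lost on leaving out any 1 of 12 of the 16 libraries (edgeR adjusted p up to 0.0797). The exceptions were HFHS untreated replicate 1 and CD ertugliflozin replicates 1, 3 and 4. H2-D1 was lost without HFHS ertugliflozin replicate 2 or 4, HFHS untreated replicate 4 or CD untreated replicate 2 or 3 (up to 0.0595). Psmb10 was lost without HFHS ertugliflozin replicate 1 or 2 or HFHS untreated replicate 4 (up to 0.0528), and the count was lowest, at 6, where all 3 were lost. Averaged over both diets, the drug effect lay between -0.01 and 0.27, with 0 members past the threshold of edgeR, 1 (Nlrc5) at an unadjusted p under 0.05 against 5.57% of all genes tested, and 0% of all genes tested past the threshold.

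The 10 genes varied together from library to library. Their mean log2 CPM, centred over the 16 libraries, was -0.24, -0.36, -0.21 and -0.43 in HFHS ertugliflozin and 0.15, 0.04, -0.39 and -0.21 in HFHS untreated. It was 0.33, 0.42, 0.65 and 0.17 in CD ertugliflozin and -0.05, 0.01, 0.15 and -0.02 in CD untreated. Over the 45 pairs of members Pearson's r across the 16 libraries ran from 0.43 to 0.98 with a median of 0.87, and from 0.16 to 0.98 with a median of 0.70 after the group means were removed. All values of a library share its RNA sample and its scaling, so these are descriptions.

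Ratios within a library do not depend on its scaling. For the 6 ratios examined, chosen with earlier results of these data known, levels were taken per kb of exon. H2-K1 stood at 0.596, 0.600, 0.571 and 0.548 of H2-D1 in HFHS ertugliflozin and at 0.643, 0.617, 0.577 and 0.587 in HFHS untreated. It stood at 0.726, 0.733, 0.765 and 0.691 of H2-D1 in CD ertugliflozin and at 0.698, 0.678, 0.694 and 0.671 in CD untreated. All 8 HFHS libraries were below all 8 CD libraries. The ratio was 0.838 times as high on HFHS as on CD within drug arms (two-sided exact permutation test over the libraries within arms, p = 0.000408, the smallest that the 4900 arrangements allow; 0.0049 adjusted over 12 tests). Leaving out any 1 library kept the log2 difference between -0.27 and -0.24, with an adjusted p of at most 0.0098. Between drug and no drug within diets the ratio differed by 0.01 on the log2 scale (exact permutation p = 0.74). This average joins opposite signs: 0.09 on CD (exact permutation p = 0.0857) and -0.07 on HFHS (0.257). Because the genes are close copies, reads placed on the wrong copy would enter this ratio.

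B2m was set against the sum of its classical heavy chains. It was 1.80 ± 0.069 times the sum of H2-K1 and H2-D1 in HFHS ertugliflozin, 1.81 ± 0.12 in HFHS untreated, 1.85 ± 0.17 in CD ertugliflozin and 1.85 ± 0.052 in CD untreated (SD, n = 4 libraries per group). Neither diet (exact permutation p = 0.427) nor drug (0.954) gave a difference past the threshold. Tap1 was 0.215 ± 0.013 times Tap2 in HFHS ertugliflozin, 0.256 ± 0.027 in HFHS untreated, 0.348 ± 0.035 in CD ertugliflozin and 0.265 ± 0.041 in CD untreated. For diet within drug arms the exact permutation p of Tap1 over Tap2 was 0.0131, or 0.0784 adjusted over 12 tests. With the drug, the log2 difference of Tap1 over Tap2 was 0.40 on CD and -0.25 on HFHS. Each had an exact permutation p of 0.0286, or 0.0857 adjusted over 24 tests.

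The inducible subunits were set against the constitutive ones that they replace. Levels were per kb of all annotated exons, which include long isoforms of Psmb8 and Psmb9, so the size of each percentage is approximate. In CPM, the CD untreated libraries averaged 18.9 for Psmb8 and 57.9 for Psmb5. Psmb8 stood at 7.13% ± 1.44 of Psmb5 in HFHS ertugliflozin, 8.74% ± 2.35 in HFHS untreated, 11.4% ± 1.77 in CD ertugliflozin and 8.67% ± 0.713 in CD untreated (SD, n = 4 libraries). Psmb9 stood at 3.42% ± 0.517 of Psmb6 in HFHS ertugliflozin, 3.79% ± 0.953 in HFHS untreated, 5.19% ± 1.09 in CD ertugliflozin and 3.98% ± 0.400 in CD untreated. Psmb10 stood at 39.2% ± 2.25 of Psmb7 in HFHS ertugliflozin, 44.4% ± 3.08 in HFHS untreated, 46.3% ± 2.67 in CD ertugliflozin and 44.0% ± 4.05 in CD untreated. The mean of each of the 3 ratios was highest in CD ertugliflozin and lowest in HFHS ertugliflozin. After adjustment over 12 tests none of the 3 passed for diet within drug arms (exact permutation test, adjusted p = 0.126, 0.126 and 0.207 in the same order). Between single groups of 4 the smallest exact permutation p possible is 0.0286. The comparisons at that value had groups that did not overlap and 0.0857 adjusted over 24 tests. None passed, but at this smallest p no comparison could pass alone, so nothing is read from that.

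**Figure D3:**
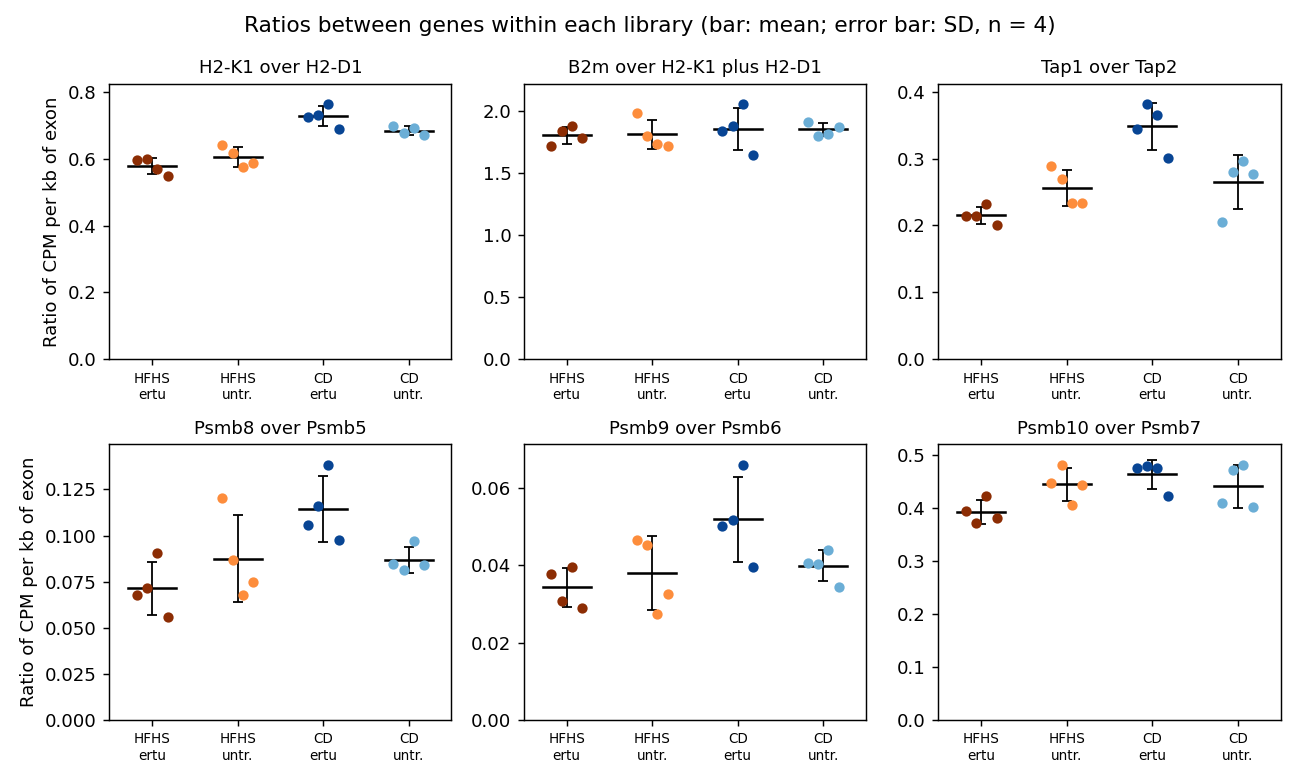
Ratio of CPM per kb of exon within each library (vertical axis, from 0) in the 4 groups (horizontal axis) for 6 pairs of genes, with 1 point per library, a bar at the mean and an error bar of 1 SD (n = 4). In the panel of H2-K1 over H2-D1 every HFHS point (0.548 to 0.643) lies below every CD point (0.671 to 0.765).

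Other genes of the pathway were read from lists in the comparison of HFHS ertugliflozin with CD ertugliflozin. Of the other class I heavy chain genes, 8 of 12 had enough counts. All 8 had negative log2 fold changes with a median of -0.70. Past the threshold of edgeR 4 fell, against 1.53% of all genes tested. H2-Q6 averaged 20.3 ± 3.33 CPM in HFHS ertugliflozin and 54.2 ± 9.10 CPM in CD ertugliflozin (SD, n = 4 each), which is -1.41 ± 0.21 on the log2 scale (edgeR adjusted p = 0.00223). H2-Q7 had -1.51 ± 0.20 (6.79e-04), H2-Q4 -0.78 ± 0.12 (0.00263) and H2-T22 -0.74 ± 0.11 (0.00127), all edgeR adjusted p. These H2-Q and H2-T genes encode non-classical class I chains, and their reads may be shared with each other and with H2-K1 and H2-D1.

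The rest of the proteasome was read beside the inducible subunits. None of the 14 genes of the constitutive core passed in the same comparison, and their median log2 fold change was -0.08. At an unadjusted edgeR p under 0.05 there were 4, against 18.5% of all genes tested. Psmb5 had -0.08 ± 0.05 (edgeR adjusted p = 0.460), Psmb6 -0.14 ± 0.05 (0.0957) and Psmb7 -0.08 ± 0.05 (0.451). Of 4 genes of proteasome caps 1 fell, against 1.53% of all genes tested. It was Psme1, a subunit of the interferon-inducible PA28 activator, at -0.31 ± 0.05 (edgeR adjusted p = 0.00327). It averaged 89.0 ± 4.28 CPM in HFHS ertugliflozin and 110 ± 2.73 CPM in CD ertugliflozin, with no overlap. Its partner Psme2 had -0.08 ± 0.11 (0.758). None of 5 assembly genes passed (1 at an unadjusted p under 0.05), with Psmg2 at -0.15 ± 0.07 (0.230).

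Of 6 loading and trimming genes none passed. At an unadjusted edgeR p under 0.05 there was 1, against 18.5% of all genes tested. Tapbpl, a relative of Tapbp that edits peptides, had -0.34 ± 0.11 (edgeR adjusted p = 0.109). None of 7 genes of the factors that bind class I promoters with Nlrc5 passed, and 0 had an unadjusted edgeR p under 0.05, with Rfx5 at -0.02 ± 0.11 (adjusted p = 0.963). Among genes of interferon gamma signalling, Irf1, an interferon-induced transcription factor, fell by 0.45 ± 0.10 on the log2 scale (edgeR adjusted p = 0.0177) with overlapping groups. Irf9, a subunit of an interferon-activated transcription complex, fell by 0.49 ± 0.12 (edgeR adjusted p = 0.0372). Irf1 was lost without HFHS ertugliflozin replicate 1, 2 or 4 or CD ertugliflozin replicate 2 or 3 (adjusted p up to 0.0732), and Irf9 without any HFHS ertugliflozin library or CD ertugliflozin replicate 1, 2 or 3 (up to 0.115). Ifng itself had too few counts to be tested. In the comparisons of ertugliflozin on CD, ertugliflozin on HFHS, HFHS untreated with CD untreated and the interaction, 0 genes of these lists passed in edgeR. The smallest unadjusted p on CD were those of H2-Q7 (0.78 ± 0.19) and H2-Q4 (0.48 ± 0.12).

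The genes most like the mean of the 10 across the 16 libraries were sought among 14189 genes with a mean of at least 1 CPM by Pearson's r of log2 CPM. They were H2-Q6 (r = 0.98, Spearman's rho 0.98), H2-Q7 (0.98 and 0.99), H2-Q4 (0.97 and 0.97), H2-T22 (0.96 and 0.96), Irgm1 (0.95 and 0.94), Ifi47 (0.93 and 0.95), H2-Q5 (0.93 and 0.89) and Igtp (0.92 and 0.93). After the group means were removed, r was between 0.66 for Igtp and 0.94 for H2-Q7. Irgm1, Ifi47 and Igtp encode interferon-inducible GTPases. These 8 were chosen for following the class I genes in the same 16 libraries, so a fall in the same comparison comes with the choice, and the values are a description. In HFHS ertugliflozin against CD ertugliflozin the log2 fold change (edgeR) was -1.28 ± 0.12 for Igtp, -0.64 ± 0.09 for Irgm1, -0.79 ± 0.17 for Ifi47 and -1.16 ± 0.20 for H2-Q5. For ertugliflozin on CD, Igtp had 0.76 ± 0.12 (edgeR adjusted p = 0.0283), but it did not pass when any 1 of 9 of the 16 libraries was left out: CD ertugliflozin replicate 2 or 3, CD untreated replicate 1, 2 or 4, HFHS ertugliflozin replicate 1 or 3, or HFHS untreated replicate 1 or 4 (adjusted p up to 0.201). It was also lost with the replicate number as a block (0.0823) and in a fit of these groups alone (0.156).

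**Figure D4:**
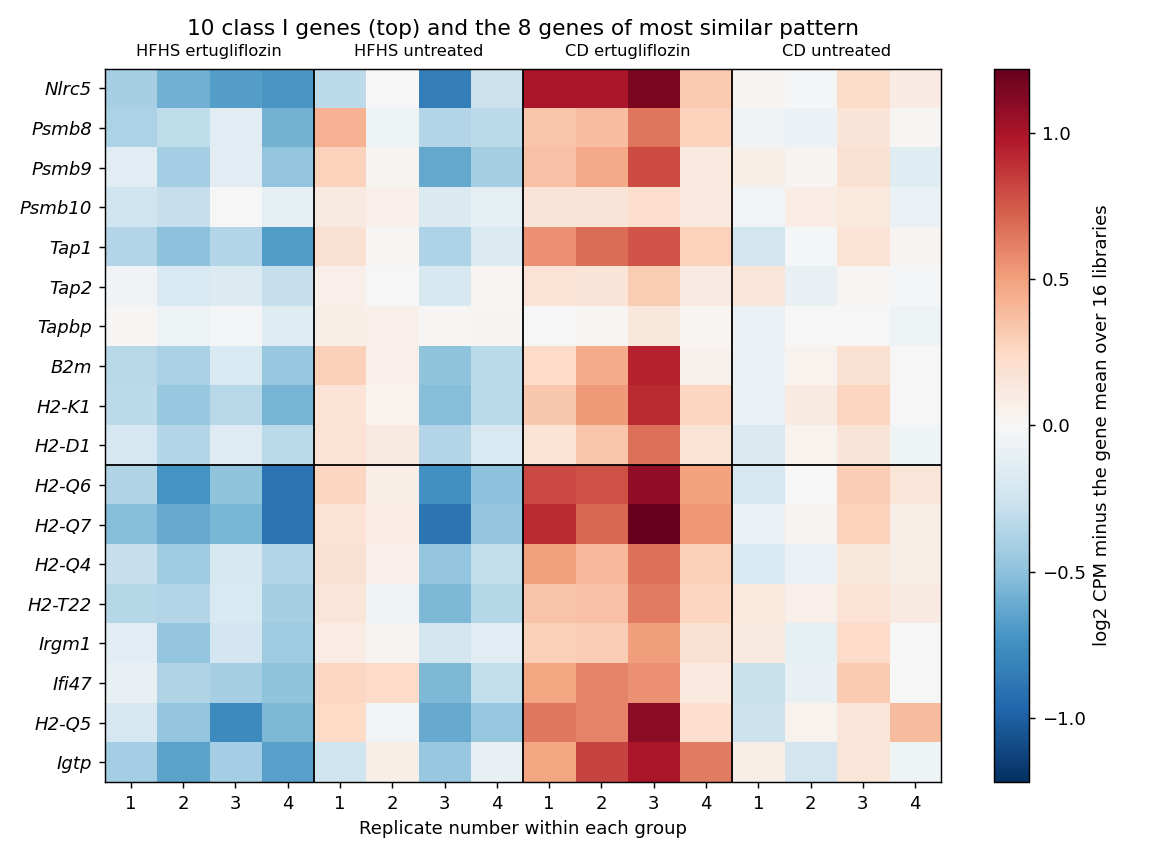
log2 CPM minus the gene's mean over 16 libraries (colour, red higher and blue lower) for the 10 class I genes (rows above the line) and the 8 genes of most similar pattern (below it), by library (columns, grouped). Most rows are blue in HFHS ertugliflozin and in HFHS untreated replicate 3 and red in CD ertugliflozin replicates 1 to 3, and Tapbp is pale in all groups.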

How the data were processed

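Deposited values are raw whole-number counts per Ensembl gene, for poly(A)-selected directional libraries of left ventricle, per the labels' protocols. Per the submitters' processing notes, the build was mm10 and the software STAR 2.6.0c, Subread 1.6.2 with featureCounts, DESeq2 1.22.1 and FastQC 0.11.7. Annotation, strand setting and the counting of multi-mapping reads were not given in the sources used here. Regularized log2 values that the authors deposited served as an alternative input.

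Symbols, exon lengths and coordinates came from GENCODE M21 (GRCm38), which matched 53669 of 53764 IDs. Within groups, no library pair matched within sampling noise (chi-square over its degrees of freedom 3.23 to 16.3), and every library is 1 replicate. Counts were tested in R 4.3.3 with edgeR 4.0.16 (filterByExpr, TMM factors, 1 fit of 4 group means over 16 libraries, robust quasi-likelihood test, Benjamini-Hochberg over 15841 genes, threshold 0.05). SE values are the absolute log2 fold change over the root of F. CPM values are given per library or as mean ± SD, and log2 CPM has a prior count of 2. Depth and 4 libraries a group set the precision. The comparisons were diet in each drug arm and averaged, drug on each diet and averaged, and their interaction.

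All 10 members are named in every comparison. Of the pathway lists, genes that passed are named or, where none passed, up to 3 of the smallest p, with Psmb5, Psmb6 and Psmb7 always, and Psme2, Rfx5 and Ifng were added after their values were seen. Some genes of the lists are not reported here, and no count is given for the interferon gamma list. The members and lists were chosen with earlier results of these data known. The ratios, the motifs and the alternatives for genes outside the 10 were added after the data were seen. Alternatives were the scaling (RLE, upper-quartile), the filter (none, or 1 CPM in 4 libraries), the tool (DESeq2 1.42.0, limma-voom, or limma 3.58.1 with the deposited log2 values), a block for replicate number, fits to the compared groups alone and omission of each library in turn. Simulated counts were used to test the scripts.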

Additional observations from a re-analysis of the deposited data

Results flagged for a closer look

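None of the 40 combinations of a class I gene and a group held a library that stood apart from the other 3 by Dixon's gap ratio. Igtp, an interferon-inducible GTPase with a pattern like that of the class I genes, had an effect of ertugliflozin that differed between the diets in the fit of all 16 libraries, with an interaction of -1.13 ± 0.17 on the log2 scale (edgeR adjusted p = 0.0219). The call was lost on leaving out any 1 of 10 of the 16 libraries, with adjusted p up to 0.0972: HFHS ertugliflozin replicate 2, 3 or 4, HFHS untreated replicate 1, 2 or 4, CD ertugliflozin replicate 2, or CD untreated replicate 1, 2 or 4. It was also lost with the replicate number as a block (0.113). Igtp was chosen for its likeness to the class I genes in these libraries. It averaged 13.3 ± 1.30 CPM in HFHS ertugliflozin and 17.2 ± 2.72 CPM in HFHS untreated, and 32.4 ± 5.01 CPM in CD ertugliflozin and 19.2 ± 2.13 CPM in CD untreated (SD, n = 4 each).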

How the results depend on the processing

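For HFHS ertugliflozin against CD ertugliflozin, 8 or 9 of the 10 genes fell under every alternative other than the omission of single libraries. B2m was the gene lost: without a filter on low counts (adjusted p = 0.0684), with the replicate number as a block (0.0518) and in a fit of these groups only (0.0719). Leaving out 1 library gave 5 to 9. For diet averaged over drug arms the count was 7 without a filter, where B2m and H2-D1 were lost, 8 with the block and 6 to 9 with 1 library left out. For ertugliflozin on CD, 0 genes passed except with DESeq2 (2), and 0 to 2 when 1 library was left out. For the interaction, 1 gene passed without a filter (Tap1), 2 with DESeq2, and 0 to 2 when 1 library was left out. The count over all genes for HFHS ertugliflozin against CD ertugliflozin was 584, and 287 to 844 when 1 library was left out. The cause of these shifts was not tested.

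Signs turned only for values that did not pass. Psmb10, for the drug averaged over diets, had -0.00094 with RLE scaling, -0.0020 with upper-quartile scaling and -0.0016 with DESeq2. Leaving out 1 library gave, for the drug averaged over diets, -0.028 to 0.024 for Psmb10, -0.0082 to 0.040 for Tap2, -0.024 to 0.15 for B2m and -0.027 to 0.0060 for Tapbp. It gave, for HFHS untreated against CD untreated, -0.072 to 0.019 for Tap2, -0.13 to 0.049 for H2-D1, -0.16 to 0.020 for Tap1 and -0.25 to 0.030 for Psmb8. It gave -0.28 to 0.017 for Psmb9 for the drug on HFHS and -0.016 to 0.011 for Tapbp for diet averaged over drug arms.

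The replicate numbers were not shown to pair the libraries. Libraries of different groups with the same number had a mean correlation of deviations of 0.037 over 24 pairs (-0.24 to 0.31). Those with other numbers had a mean of -0.012 over 72 pairs (-0.26 to 0.27). Of 16 libraries, 7 correlated best with their own number. With the replicate number as a block, 8 of the 10 genes fell for HFHS ertugliflozin against CD ertugliflozin and 8 for diet averaged over drug arms, and 0 passed in the other comparisons. Single-gene changes of small size may be missed with 4 libraries a group at this depth. Some did pass, such as that of Psmb10 (-0.32) for HFHS ertugliflozin against CD ertugliflozin.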
